A study of Homo sapiens with 6 samples.

Results

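The genes of Complex II, Complex III with its electron carrier cytochrome c, and ATP synthase were examined in RNA-seq of Molm13 cells, a human acute myeloid leukemia line with a rearranged MLL gene. Members were taken by name alone from the deposited count table, as every symbol that starts with SDHA, SDHB, SDHC, SDHD, UQC or ATP5, together with CYC1, CYCS, BCS1L, LYRM7, TTC19, ATPAF1 and ATPAF2. They numbered 47 of the 19845 gene symbols, with 8 in Complex II, 17 in Complex III with cytochrome c and 22 in ATP synthase. All 6 libraries came from Molm13 cells that stably express the Cas9 nuclease, and the cells were selected with puromycin after lentiviral delivery of a single guide RNA. In 3 libraries the guides were directed at non-essential sequences (sgCtrl #1, #2 and #3), and in 3 libraries they were directed at COX4I1, a nuclear-encoded subunit of Complex IV (sgCOX4I1 #1, #2 and #3). Each replicate carried a different guide, so the spread within a group includes differences between guides. The time between transduction and RNA extraction was not given in the sources used here.

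Complex II, or succinate dehydrogenase, passes electrons from succinate to ubiquinone and is also an enzyme of the citric acid cycle. Complex III takes electrons from ubiquinol, pumps protons across the inner mitochondrial membrane and hands the electrons to cytochrome c, which carries them to Complex IV. ATP synthase lets the protons flow back through a rotating ring of c subunits and uses that rotation to make ATP. All subunits of Complex II are encoded in the nucleus, whereas Complex III and ATP synthase also hold subunits encoded by mitochondrial DNA.

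The 6 libraries held between 17241014 and 30861943 counts. Levels are given as CPM, in which each library's counts were scaled to a common total after TMM normalization. The targeted gene COX4I1 was at 513, 502 and 463 CPM in sgCtrl #1, #2 and #3, and at 132, 378 and 133 CPM in sgCOX4I1 #1, #2 and #3. The sgCOX4I1 #2 library therefore kept most of the COX4I1 mRNA, and the groups did not overlap. The 9 myeloid leukemia markers that were checked summed to between 3320 and 4978 CPM per library, and they did not move together. MPO, the myeloperoxidase of granules, fell from 228, 219 and 235 CPM in sgCtrl to 117, 105 and 106 CPM in sgCOX4I1 #1, #2 and #3 (adjusted p = 1.59e-05 in edgeR). LYZ, or lysozyme, was at 1149, 1520 and 2100 CPM against 2026, 3022 and 3104 CPM (adjusted p = 0.0534 in edgeR). The part of these differences in the values of the members was not tested. The 7 markers of other cell types summed to between 0.436 and 0.923 CPM, and 4 of them had no count in any library. These are bulk samples, in which fewer cells of a type and less RNA per cell cannot be told apart.

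Where these genes start, some of their promoters hold the short motifs of factors known for driving respiratory chain genes. Promoters in RefSeq (GRCh38.p14), from 250 bases before the start site to 50 bases after it, were matched for 34 of the 47 members. The NRF1 motif, which reads the same on both strands and whose letters are the capitals in the ATP5C1 window, stood in 2 of these 34 promoters (5.88%), against 1.36% of 27305 promoters. The ETS motif CCGGAAGT, the core bound by GABP and other ETS factors, stood on either strand in 7 of the 34 (20.6%), against 4.44% of all promoters. The promoters compared were those of all genes, expressed here or not, and were not matched for base composition. Whether the motifs are more frequent in these members than in other expressed genes was not tested. The 2 motifs share no overlap in SDHD, which holds both. The windows below show both motifs in SDHD, the other NRF1 match, and ETS matches in 3 further members whose levels are given below, each on the strand of its gene from 5′ to 3′ with the motif or its reverse complement in capitals.
SDHD, NRF1 motif, plus strand of chr11:112086753-112086782: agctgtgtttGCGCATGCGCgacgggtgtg
SDHD, ETS motif, plus strand of chr11:112086784-112086813: accgcctctcgACTTCCGGttcacccagca
ATP5C1, NRF1 motif, plus strand of chr10:7788145-7788174: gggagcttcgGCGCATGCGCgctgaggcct
LYRM7, ETS motif, plus strand of chr5:131170694-131170723: ctgcgCCGGAAGTgactgtgcccctaacta
UQCRQ, ETS motif, plus strand of chr5:132866577-132866606: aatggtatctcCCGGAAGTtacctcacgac
UQCRH, ETS motif, plus strand of chr1:46303640-46303669: gagtgtgccgcACTTCCGGccagatcgccg
The motifs begin 110 and 78 bases before the start site in SDHD, 22 in ATP5C1, 245 in LYRM7, 54 in UQCRQ and 47 in UQCRH. The motifs were chosen with earlier results of these data known. A match of letters is a description of the sequence and not a measured binding site.

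The mRNAs of Complex II, Complex III and ATP synthase were close to their control levels in sgCOX4I1 cells. Of the 47 members, 45 passed the expression filter of edgeR, and none of these 45 was called at an adjusted p under 0.05 by its quasi-likelihood test, with p-values adjusted by the Benjamini-Hochberg method. Of the 11861 genes tested, 2.08% were called, with 1.06% higher and 1.02% lower in sgCOX4I1 cells. At an unadjusted p under 0.05 there were 2 members, CYCS and UQCRC2, both higher, against 17.3% of all genes, of which 8.9% were higher and 8.41% lower. The fold change was above 0 for 33 of the 45 members, against 49.4% of all genes. DESeq2 and limma-voom called 0 members as well, with 3 and 4 at an unadjusted p under 0.05. Without sgCtrl #1 the edgeR test called 1 member, CYCS, and without each of the other 5 libraries in turn it called none. A result of 0 members called did depend on the model. An edgeR fit with the replicate number as a block called 5 of the 45 members, all higher, and 13 had an unadjusted p under 0.05. In that fit 1408 of 11861 genes were called, 723 of them higher, and 3169 had an unadjusted p under 0.05. Whether the numbers pair the samples is not known. The number of members above 0 depended on single libraries, and was 25 of 44 without sgCtrl #3 and 23 of 45 without sgCOX4I1 #1, with medians of 0.009 and 0.021 on the log2 scale, against 39 of 45 without sgCtrl #1 and 38 of 45 without sgCOX4I1 #3, each with a median of 0.124. Without sgCOX4I1 #2, the library that kept most of its COX4I1 mRNA, 34 of the 45 members were above 0, and the medians of Complex II, Complex III and ATP synthase were 0.120, 0.104 and 0.018 on the log2 scale.

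For 43 of the 45 members the 95% interval of the log2 fold change lay within ±0.585, which is a change of 1.5-fold. The exceptions at 1.5-fold were UQCRQ, whose interval reached 0.602, and the read-through transcript ATP5J2-PTCD1, which had 2 to 13 counts per library and an interval from -2.21 to 0.63. Leaving that transcript aside, the fold changes of 44 members lay between -0.10 for ATP5G2 and 0.24 for CYCS on the log2 scale, with standard errors from 0.070 to 0.21.

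**Figure D1:**
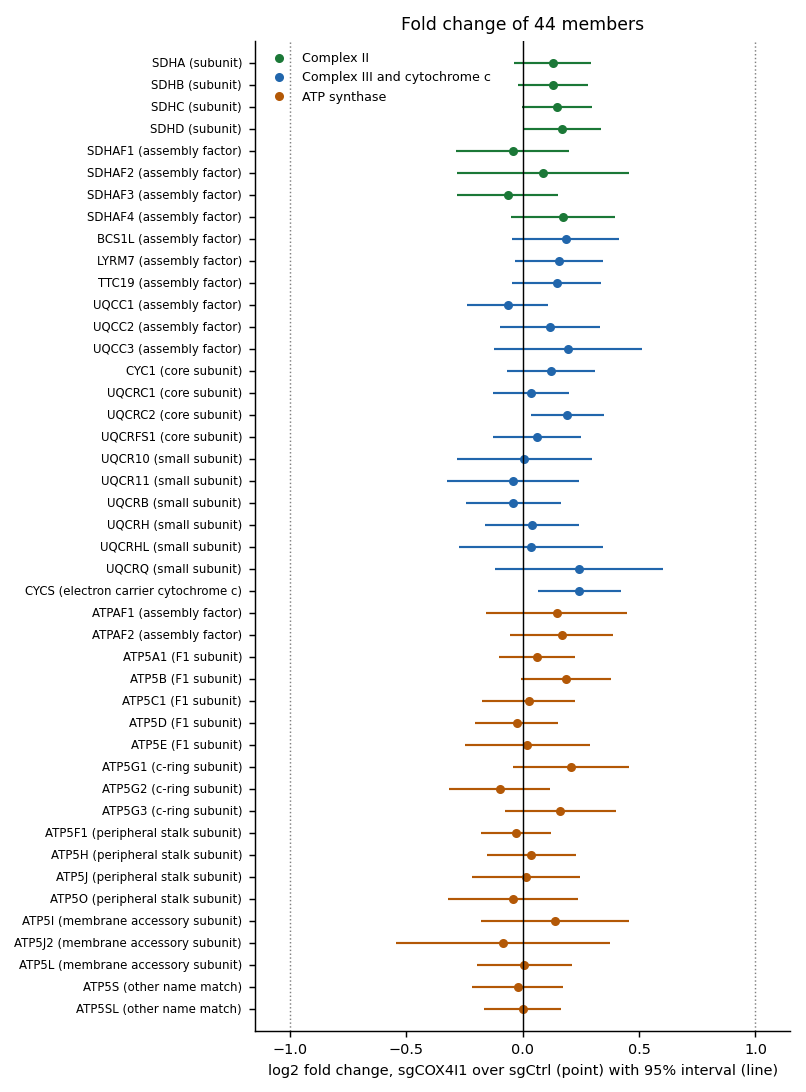
Log2 fold change of sgCOX4I1 over sgCtrl for 44 members tested (points, coloured by complex) with 95% intervals from edgeR (lines) on a linear axis in log2 units, with dotted lines at a change of 2-fold. The intervals of CYCS and UQCRC2 lie above 0, those of the other 42 include 0, and none reaches 2-fold.

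None of the 8 Complex II genes was called, and for 4 of them the sgCtrl and sgCOX4I1 libraries were fully apart. Its 4 subunits, SDHA, SDHB, SDHC and SDHD, had log2 fold changes from 0.13 to 0.17 and a median of 0.138, beside a median of -0.002 over all genes tested. SDHD had the smallest adjusted p of the complex in the edgeR test, 0.290. The sgCOX4I1 libraries all lay above the sgCtrl libraries for 3 of the 4 subunits, an arrangement found in 11.2% of all genes tested, and 10.4% showed the reverse.

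SDHD (GRCh38 chr11:112086824-112120016), a membrane anchor of the complex that helps to form the ubiquinone site, was at 152, 143 and 134 CPM in sgCtrl #1, #2 and #3 and at 174, 155 and 155 CPM in sgCOX4I1 #1, #2 and #3. The lowest sgCOX4I1 library was only slightly above the highest sgCtrl library, and the mean was 143 ± 9.05 CPM against 161 ± 10.9 CPM (SD, n = 3 each). Its log2 fold change was 0.17 with a 95% interval from -0.0003 to 0.34.

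SDHC, the other membrane anchor, was at 119.9, 114 and 120.0 CPM in sgCtrl and at 128, 136 and 129 CPM in sgCOX4I1. The groups were apart and the sgCtrl libraries lay within a narrow band, and the log2 fold change of 0.15 had an adjusted p of 0.301 in edgeR. SDHB, the iron-sulfur subunit, was at 99.2, 94.0 and 95.1 CPM in sgCtrl and at 107, 106 and 102 CPM in sgCOX4I1. Here too every sgCOX4I1 library was above every sgCtrl library, by a log2 fold change of 0.13 (standard error 0.070).

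SDHA, the flavoprotein that oxidizes succinate, was at 242, 223 and 204 CPM in sgCtrl and at 247, 247 and 237 CPM in sgCOX4I1. Its groups overlapped, since sgCtrl #1 exceeded sgCOX4I1 #3. In GENCODE 44, 69.4% of the canonical SDHA transcript and 23.8% of that of SDHD are shared with another gene on the same strand, so some of their reads may not have been counted.

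The 4 assembly factors of Complex II, SDHAF1 to SDHAF4, were divided, with 2 above 0 and 2 below. SDHAF1 and SDHAF3, which mature the iron-sulfur subunit, had log2 fold changes of -0.04 and -0.06. SDHAF2 and SDHAF4, which act on the flavoprotein subunit, had 0.09 and 0.17. SDHAF4 was the 1 factor without overlap, at 20.8, 19.7 and 18.2 CPM in the sgCtrl libraries and at 23.7, 21.0 and 21.5 CPM in the sgCOX4I1 libraries.

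Summed over its 8 genes, Complex II mRNA was 704.0, 663 and 635 CPM in sgCtrl #1, #2 and #3, compared with 749, 727 and 710 CPM in sgCOX4I1 #1, #2 and #3. The lowest sgCOX4I1 sum was thus just above the highest sgCtrl sum. The sums of the other complexes overlapped between groups. Complex III ranged from 1935 to 2223 CPM in sgCtrl and from 2054 to 2350 CPM in sgCOX4I1. The tested genes of ATP synthase ranged from 3531 to 4112 CPM in sgCtrl and from 3747 to 4257 CPM in sgCOX4I1. All 4 subunits of Complex II kept a fold change above 0 with each of the 6 libraries left out, in ranges that together ran from 0.071 to 0.215. For SDHB, SDHC and SDHD this follows from groups that were already fully apart, and it adds nothing to that. How many of all genes keep their sign in this way was not tested.

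In Complex III, 14 of the 17 genes had a fold change above 0, with a median of 0.116 on the log2 scale, and none was called. The groups were apart for 1 of the 17, UQCRC2, against 21.6% of all genes in either direction. Without sgCtrl #3 or without sgCOX4I1 #1, the number above 0 was 11 of 17, and the median was 0.038 and 0.036. Without each of the other 4 libraries it was 14 to 16 of 17, with medians from 0.104 to 0.146.

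CYCS (GRCh38 chr7:25118656-25125260) encodes cytochrome c, the small heme protein that carries electrons from Complex III to Complex IV and that starts apoptosis when it reaches the cytosol. It had the smallest p of all members. Its mRNA was at 214, 181 and 191 CPM in sgCtrl and at 237, 244 and 213 CPM in sgCOX4I1 #1, #2 and #3. The sgCOX4I1 #3 library lay just below sgCtrl #1, so the groups overlapped, and the means were 195 ± 16.8 and 231.5 ± 16.1 CPM (SD, n = 3 each). The log2 fold change was 0.24 with a 95% interval from 0.065 to 0.42, for which edgeR gave an adjusted p of 0.149. With each library left out the fold change ran from 0.19 to 0.31, and the adjusted p over all settings ran from 0.0185 to 0.472. GENCODE 44 names 42 pseudogenes after CYCS, so its reads may have been split or left uncounted.

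Of the 4 core subunits, UQCRC2 was the member with the second smallest p. UQCRC1 and UQCRC2 are the large matrix-facing subunits that hold the dimer together. UQCRC2 (GRCh38 chr16:21953288-21983660) was at 186, 168 and 177 CPM in sgCtrl and at 212, 194 and 199.6 CPM in sgCOX4I1, with every sgCOX4I1 library above every sgCtrl library. Its log2 fold change was 0.19 with a 95% interval from 0.034 to 0.35, and edgeR gave an adjusted p of 0.193.

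UQCRC1 was at 248, 252 and 243 CPM in sgCtrl and at 242, 278 and 242 CPM in sgCOX4I1. Its sgCOX4I1 #2 library was above all others and the other sgCOX4I1 libraries were below all 3 sgCtrl libraries, with a log2 fold change of 0.04 (95% interval from -0.13 to 0.20).

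CYC1, or cytochrome c1, passes electrons to cytochrome c, and UQCRFS1, the Rieske protein, feeds them to CYC1. CYC1 was at 282, 267 and 227 CPM in sgCtrl and at 291, 291 and 262 CPM in sgCOX4I1. UQCRFS1 was at 214, 195 and 179 CPM in sgCtrl and at 217, 214 and 184 CPM in sgCOX4I1. The groups overlapped in both genes, with log2 fold changes of 0.12 and 0.06.

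The 6 small subunits had fold changes from -0.04 for UQCR11 to 0.24 for UQCRQ, with a median of 0.021. UQCRQ, a subunit that packs against cytochrome b, was at 62.0, 59.0 and 39.8 CPM in sgCtrl and at 80.2, 59.8 and 50 CPM in sgCOX4I1. Its spread within each group was wide, with standard deviations of 12 and 15.4 CPM. UQCRB and UQCRH had fold changes of -0.04 and 0.04. UQCRHL, a gene without introns that resembles UQCRH closely, had 212 to 395 counts per library, and reads of the pair may have been exchanged.

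Of the 6 assembly factors, 5 had fold changes between 0.12 and 0.20 and UQCC1 had -0.06. LYRM7, a chaperone of the Rieske protein, was at 38.9, 37.0 and 36.5 CPM in sgCtrl and at 41.5, 38.4 and 45.1 CPM in sgCOX4I1. The groups overlapped through sgCOX4I1 #2. The log2 fold change was 0.16, at an adjusted p of 0.389 in edgeR. BCS1L, the translocase that inserts the Rieske protein, had 0.19, and TTC19, which clears its fragments, had 0.15.

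ATP synthase mRNAs had a median log2 fold change of 0.018 over 20 genes tested, of which 13 were above 0 and 7 below. None was called, and the groups were apart for 1 of the 20, ATPAF2, against 21.6% of all genes in either direction. Without sgCtrl #3, 8 of 19 were above 0 (median -0.005), and without sgCOX4I1 #1, 6 of 20 were (median -0.034). Without sgCtrl #1 and without sgCOX4I1 #3 it was 16 of 20 each, with medians of 0.083 and 0.093, so the sign of this median rested on single libraries. The 2 members not tested were ATP5L2, which had no count in any library, and the pseudogene ATP5EP2, which had 1 count in each of 2 sgCOX4I1 libraries.

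The catalytic head, F1, is built from ATP5A1 (alpha) and ATP5B (beta), which alternate around the gamma subunit ATP5C1. ATP5B (GRCh38 chr12:56638175-56645984), which carries the catalytic sites, was at 1192, 1059 and 993 CPM in sgCtrl and at 1297, 1224 and 1172 CPM in sgCOX4I1. The lowest sgCOX4I1 library was below sgCtrl #1. The log2 fold change was 0.19 with a 95% interval from -0.007 to 0.38 (adjusted p = 0.307 from the edgeR test).

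ATP5A1 was at 817, 774 and 794 CPM in sgCtrl and at 842, 851 and 796 CPM in sgCOX4I1. The groups overlapped and the log2 fold change was 0.06 (95% interval from -0.10 to 0.23). The other F1 subunits, ATP5C1, ATP5D and ATP5E, had log2 fold changes of 0.03, -0.03 and 0.02.

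In the peripheral stalk, which holds the head still while the ring turns, the 4 genes ATP5F1, ATP5H, ATP5J and ATP5O had log2 fold changes from -0.04 to 0.04. ATP5F1, the b subunit, had the narrowest sgCOX4I1 spread of the 4 relative to its level, at 311 ± 3.87 CPM against 317 ± 12.7 CPM in sgCtrl (SD, n = 3 each). ATP5O was counted at only 10.6 to 13.3 CPM per library, and 63.8% of its canonical transcript is shared with another gene on the same strand.

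The membrane accessory subunits ATP5I, ATP5J2 and ATP5L, which shape the dimer of the enzyme, had log2 fold changes of 0.14, -0.09 and 0.01. ATP5J2 ranged from 11.8 to 21.9 CPM in sgCtrl and from 14.1 to 22.5 CPM in sgCOX4I1. Its canonical transcript is shared with a same-strand gene over 37.2% of its length.

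The 2 assembly factors had log2 fold changes of 0.15 and 0.17. ATPAF2, a chaperone of the alpha subunit, was at 15.9, 16.2 and 17 CPM in sgCtrl and at 18.6, 17.8 and 18.8 CPM in sgCOX4I1. All 3 sgCOX4I1 libraries lay above all 3 sgCtrl libraries, and the adjusted p was 0.438 from the edgeR test. ATPAF1, a chaperone of the beta subunit, was at 9.81 ± 1.14 and 10.8 ± 1.10 CPM (SD, n = 3 each). ATP5S, a coupling factor, and ATP5SL, which acts in Complex I assembly despite its older name, had fold changes of -0.02 and 0.002.

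**Figure D2:**
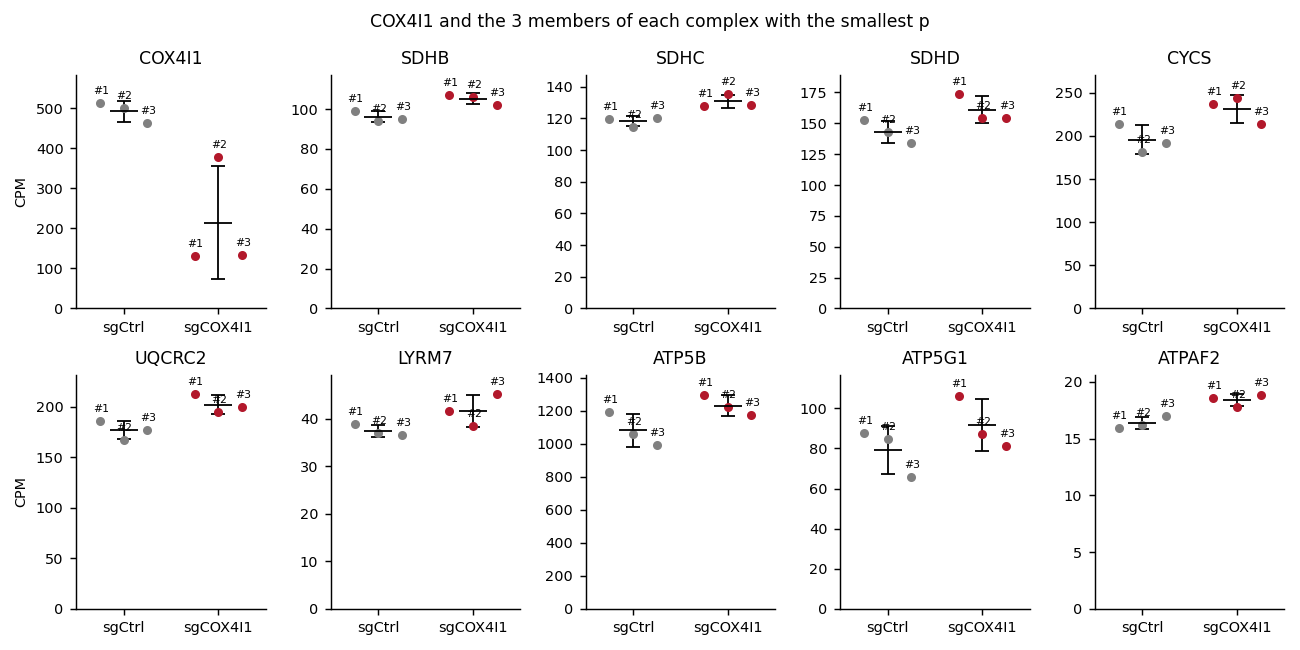
CPM (linear axes from 0) of COX4I1 and of the 3 members of each complex with the smallest p, with 1 point per library numbered by its guide, and the mean and SD of 3 libraries per group in black. COX4I1 was at 132 and 133 CPM in sgCOX4I1 #1 and #3 and at 378 CPM in #2, and the groups of the members lie close to each other on a scale from 0.

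The 3 genes of the c-ring, ATP5G1, ATP5G2 and ATP5G3, encode the same mature protein behind different import signals. Their levels were therefore also read against each other, a comparison chosen after their values were seen. ATP5G1 was at 87.7, 84.7 and 65.7 CPM in sgCtrl #1, #2 and #3 and at 106, 87.4 and 81.3 CPM in sgCOX4I1 #1, #2 and #3. ATP5G3 was at 166, 158 and 125 CPM in sgCtrl and at 189.9, 167 and 146 CPM in sgCOX4I1.

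ATP5G2, the gene with the most counts of the 3, was at 366, 343 and 293 CPM in sgCtrl and at 352, 305 and 279 CPM in sgCOX4I1. The groups overlapped for each gene alone, and the log2 fold changes were 0.21, -0.10 and 0.16 for ATP5G1, ATP5G2 and ATP5G3, each with an interval that includes 0.

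Within a library the proportions were more even. ATP5G2 made up 59.1%, 58.5% and 60.5% of the counts of the 3 genes in sgCtrl #1, #2 and #3, and 54.3%, 54.6% and 55.0% in sgCOX4I1 #1, #2 and #3. All sgCOX4I1 shares were lower, with a mean of 54.6 ± 0.362% against 59.4 ± 1.04% (SD, n = 3 each). This is a difference of -4.74 percentage points (two-sided exact permutation p = 0.1, below which a test of 3 libraries against 3 cannot go). The p-value cannot weigh a comparison that was chosen after its values were seen. The shares of ATP5G1 and ATP5G3 were higher by 1.95 and 2.79 percentage points, without overlap between groups. As the 3 shares make up a whole, these rises together restate the lower share of ATP5G2. How often the shares of other genes are apart in this way was not tested.

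The summed level of the 3 genes was 563 ± 70.7 CPM in the sgCtrl group and 571 ± 71.7 CPM in sgCOX4I1 (SD, n = 3 each; two-sided exact permutation test, p = 0.9). The difference between the fold change of ATP5G2 and the mean of the other two was -0.28 on the log2 scale and lay between -0.31 and -0.25 over 15 alternative settings. These settings use the same libraries and compare genes within a library, so they could move it little. The narrow range therefore cannot weigh a comparison that was chosen after its values were seen. GENCODE 44 names 8 pseudogenes after ATP5G1, 5 after ATP5G2 and 0 after ATP5G3.

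**Figure D3:**
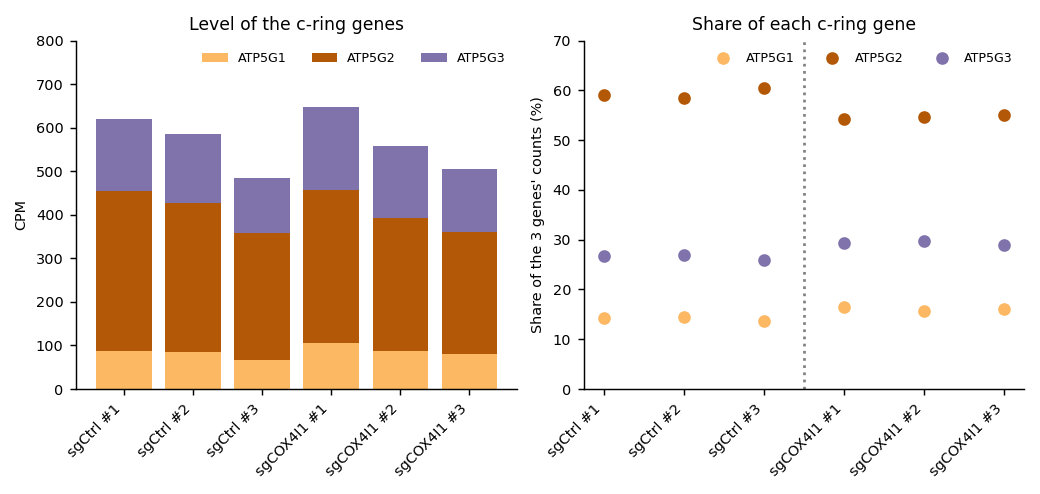
Left, stacked CPM (axis from 0) of ATP5G1, ATP5G2 and ATP5G3 in each of the 6 libraries. Right, the share of each gene among the counts of the 3 in percent, in which ATP5G2 lies between 58.5% and 60.5% in the sgCtrl libraries and between 54.3% and 55.0% in the sgCOX4I1 libraries.

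Compared per kilobase of transcript in sgCtrl cells, the 4 subunits of Complex II lay above its assembly factors. In Complex III the ranges of subunits and assembly factors overlapped. In ATP synthase the lowest mean of a tested subunit was only slightly above that of the higher assembly factor. In Complex II the 4 subunits were at 94.7 CPM per kilobase for SDHB to 257 for SDHC, and the 4 assembly factors were at 14 for SDHAF2 to 42.0 for SDHAF3. In Complex III the highest levels per kilobase were those of UQCRB at 539 and UQCRH at 466, and the lowest was that of the assembly factor UQCC3 at 7.16. The assembly factor LYRM7, at 62.1, stood above the subunit UQCR11, at 22.6. In ATP synthase ATP5B was at 615 CPM per kilobase, followed by ATP5A1 at 378, ATP5G2 at 350.0 and ATP5D at 338. The libraries of ATP5G2 overlapped with those of both its neighbours in this order. The stalk subunit ATP5O, at 16.3, was close to the assembly factor ATPAF2, at 15.5. ATPAF1 had the lowest level per kilobase of the tested genes of ATP synthase other than the read-through transcript, at 3.69. Lengths are the median over the coding transcripts of a gene, and for some genes, such as UQCRB, annotated transcripts differ widely in length, so the order of close neighbours is uncertain.

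**Figure D4:**
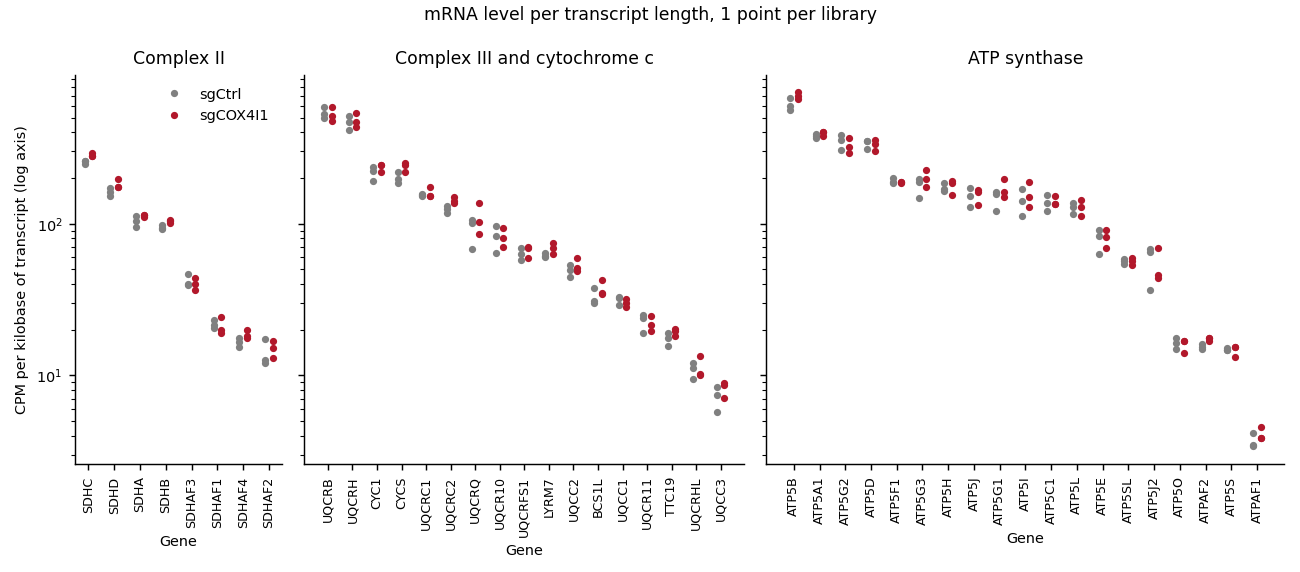
CPM per kilobase of transcript (log axis) in each library, with grey points for sgCtrl and red points for sgCOX4I1 and genes ordered by their sgCtrl mean within each complex, without ATP5J2-PTCD1 and the 2 members not tested. The groups of each gene lie close together beside the range over genes, which runs from 3.69 for ATPAF1 to 615 for ATP5B.

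The members also varied between libraries of the same group, with a median range of 0.257 on the log2 scale over the 3 sgCtrl libraries. The sgCtrl #1 library was the highest of its group for 33 members and sgCtrl #3 the lowest for 31. Among the sgCOX4I1 libraries, #1 was the highest for 29 members and #3 the lowest for 32.

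The median deviation of the 45 members from their mean over the 6 libraries was 0.074, -0.007 and -0.152 on the log2 scale in sgCtrl #1, #2 and #3, and 0.138, 0.034 and -0.058 in sgCOX4I1 #1, #2 and #3. This order was not particular to the members. Structural subunits of Complex I had medians of 0.090, 0.029 and -0.204 in sgCtrl and 0.132, 0.025 and -0.094 in sgCOX4I1. For nuclear subunits of Complex IV they were 0.161, 0.035 and -0.291 in sgCtrl and 0.284, 0.004 and -0.177 in sgCOX4I1. UQCR10, a small subunit of Complex III, was at 72.6, 62.1 and 47.8 CPM in sgCtrl and at 70.8, 60.2 and 52.6 CPM in sgCOX4I1. Across 44 members, without ATP5J2-PTCD1, the Spearman correlation of transcript length with the difference of #1 and #3 was -0.36 in each group. This is a description across genes that share the same libraries.

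Of the 3 genes that mitochondrial DNA contributes to these complexes, MT-CYB and MT-ATP6 had the reverse order of libraries in both groups. MT-CYB, the cytochrome b of Complex III, was at 1336, 1873 and 2301 CPM in sgCtrl and at 1519, 1829 and 2561 CPM in sgCOX4I1. MT-ATP6, the a subunit of ATP synthase, was at 1473, 2002 and 2437 CPM in sgCtrl and at 1591, 1718 and 2431 CPM in sgCOX4I1. Their log2 fold changes were 0.10 and -0.04 with standard errors of 0.19 and 0.17. MT-ATP8, which overlaps MT-ATP6 and had 143 to 357 counts per library, was at 9.16, 7.76 and 8.84 CPM in sgCtrl and at 7.39, 8.31 and 11.4 CPM in sgCOX4I1. It was highest in library #1 of the sgCtrl group and lowest in library #1 of the sgCOX4I1 group, with a log2 fold change of 0.09. The part that such differences between libraries have in the fold changes of the members was not tested.

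**Figure D5:**
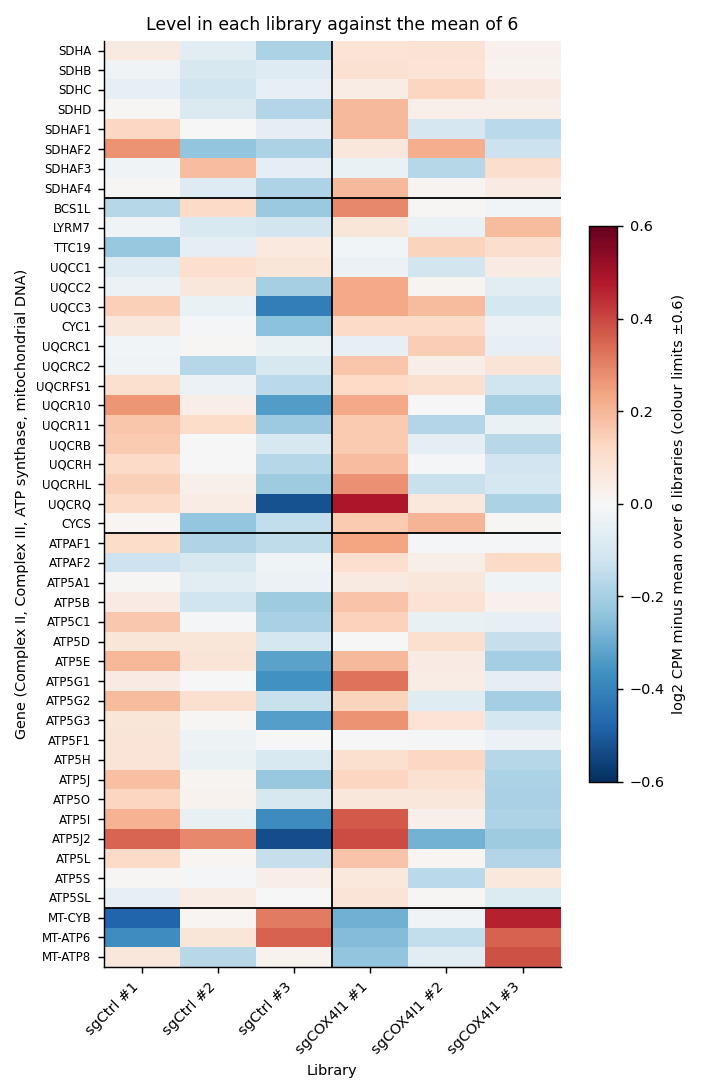
Log2 CPM of each gene in each library minus its mean over the 6 libraries, for 44 members and the 3 mitochondrially encoded genes, from blue (lower) to red (higher) with colours limited at ±0.6. Within a group, most members are reddest in library #1 and bluest in library #3, whereas MT-CYB and MT-ATP6 show the opposite.

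Other genes of the pathway were described in the same way. Genes that belong to Complex III or ATP synthase but stand under other symbols in the table, or that assist them, numbered 9, of which 8 were tested and none was called, with a median log2 fold change of 0.112. They include ATPIF1, the inhibitor that blocks reverse rotation of ATP synthase, at 83.1 ± 12.2 CPM in the sgCtrl group and 79.7 ± 9.59 CPM in the sgCOX4I1 group (SD, n = 3 each). At an unadjusted p under 0.05 were 2 of them, TMEM70, which assembles the c-ring, and C12orf73, a small Complex III factor, with log2 fold changes of 0.30 and 0.43, for which edgeR gave adjusted p-values of 0.150 and 0.212.

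None of the 13 genes of coenzyme Q synthesis, the 37 structural subunits of Complex I or the 12 nuclear subunits of Complex IV was called by the same test, with medians of 0.016, 0.048 and 0.053. The last list includes COX4I1 itself, whose log2 fold change was -1.21 with an adjusted p of 0.0512 from the edgeR test. Whether COX4I1 was called depended on the setting, with an adjusted p of 0.0291 in limma-voom and 0.237 in DESeq2. Without sgCOX4I1 #2 its log2 fold change was -1.895, with an adjusted p of 3.37e-06 in edgeR. Beside these stood the medians of 0.130 for Complex II, 0.116 for Complex III and 0.018 for ATP synthase, whose differences from each other were not tested.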

How the data were processed

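The authors deposited whole-number counts per gene symbol for 6 libraries, without normalization. The methods describe Trimmomatic, Bowtie2 and RSEM on GRCh38.p14, whereas the submitters' processing notes list STAR 2.6.0a and GRCh38, and the names in the deposited counts point to STAR, marked duplicates and HTSeq. The kit was directional, and the strand setting of the counting was not given in the sources used here. Columns C and K with their number were read as sgCtrl and sgCOX4I1. The C and K columns total 17241014 to 30861943 counts, so 0 counts allow up to 3 counts, or 0.0959 to 0.174 CPM, from counting error only. Replicates differed by more than sampling noise.

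From the deposited counts, edgeR 4.0.16 (R 4.3.3) computed TMM factors, its expression filter and the quasi-likelihood test without covariates, with Benjamini-Hochberg adjustment over 11861 genes. Intervals use the standard error from the F statistic. With 3 libraries per group the smallest exact permutation p is 0.1. The labels number the replicates by guide and say nothing more of how they were cultured, so p-values measure only the spread between these libraries. The named genes are COX4I1, called members, the 3 members of each complex with the smallest p, core subunits and 3 mitochondrially encoded genes. Further members given with single values were picked with those values known. The members and lists were chosen with earlier results of these data known. Alternatives were DESeq2 1.42.0, limma-voom (limma 3.58.1), no TMM, other count filters, a replicate block, removal of GC and length trends, and each library left out. Positions, lengths and overlaps are from GENCODE 44 on GRCh38, in which 19209 of 19845 symbols matched. The fits were tested on simulated data.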

Additional observations from a re-analysis of the deposited data

How the results depend on the processing

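No member was called in the edgeR fit, with DESeq2, with limma-voom, without TMM, with either other count filter, or with the GC or the length trend removed. With the replicate number as a block, 5 of 45 members were called, all 5 higher (CYCS, UQCRC2, ATP5B, ATP5G1 and UQCRQ). That fit called 1408 of 11861 genes in either direction, a share close to that of the members. The 723 genes called higher are a smaller share of 11861 than 5 of 45, and this difference was not tested. With the block and the GC trend removed, 5 of 45 members were called, all 5 higher (CYCS, CYC1, ATP5B, ATP5G1 and UQCRQ). Here 1395 of 11861 genes were called in either direction, again a similar share. The 742 called higher are again a smaller share than that of the members. Same-numbered libraries deviated together for #1 (r = 0.382) and #3 (r = 0.294) and not for #2 (r = -0.024), and not every library correlated best with its own number. These deviations are from a mean of 3 libraries, so a library in the middle can correlate weakly even if the numbers mark pairs. The correlations therefore cannot decide whether the numbers pair the samples. The labels name no shared batch, so the main fit has no block. With each library left out, 0 to 1 members were called, and the 1 was CYCS without sgCtrl #1, where it was higher.

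Over all genes, 247 were called, 126 higher and 121 lower, against 456 (218 and 238) with DESeq2, 537 (286 and 251) without a count filter, 1408 (723 and 685) with the replicate block and 1395 (742 and 653) with the block and the GC trend removed. With each library left out the count ran from 24 to 561, with 12 to 227 higher and 12 to 334 lower. The cause of these shifts was not tested. The ATP5G2 share, chosen after its values were seen, differed by -5.17 to -4.16 percentage points with each library left out. As its groups did not overlap, leaving out a library could not change this sign. Of 45 members, 24 kept the sign of their fold change in every setting in which they were tested, 21 above 0 and 3 below, and 1 of these 3, ATP5J2-PTCD1, was not tested in all settings. The median over all genes stayed within 0.011 of 0. Counts of under 20 per library limit ATP5J2-PTCD1, and overlapping genes and pseudogenes limit SDHA, CYCS and ATP5O.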
